A study of Mus musculus with 18 samples.

Results

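The JQ1 response of Fmr1 knockout (KO) neurons was compared with the JQ1 response of wild-type (WT) neurons, gene by gene. The comparison used 12 of the 18 samples of the series, chosen by their labels for genotype and treatment, and left out the 6 samples treated with THZ1. The neurons were cultured from mouse cortex, kept for 7 days, and then exposed for 24 h to JQ1 or to its vehicle, DMSO. The groups were WT in DMSO, WT in JQ1, KO in DMSO and KO in JQ1, with 3 libraries each. The labels name no driver that would limit the knockout to neurons. They give neither the JQ1 dose nor the strain, nor whether replicates were separate cultures or animals. P-values therefore measure the spread between these libraries, which may be partly technical. The quantity reported is the difference of responses: the log2 ratio of JQ1 to DMSO in KO minus the same ratio in WT. A positive value means that the KO response was the higher of the pair, that is, a larger rise or a smaller fall.

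JQ1 occupies the acetyl-lysine pockets of the BET bromodomain proteins and so displaces them from acetylated chromatin. BET proteins help to bring the elongation factor P-TEFb to promoters and enhancers, and in neurons they take part in activity-dependent transcription. FMRP, the product of Fmr1, binds mRNAs, many of them long transcripts of synaptic and chromatin genes, and represses their translation. Its loss causes fragile X syndrome. The comparison therefore asks whether neurons without FMRP answer BET inhibition with another set of genes, or with another strength, than neurons that have it.

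The targeted gene was read first. Fmr1 stood at 124.2, 119.4 and 119.1 CPM (counts scaled to library size) in WT in DMSO and at 144.8, 153.5 and 135.1 CPM in WT in JQ1. In KO it stood at 21.52, 22.17 and 29.44 CPM in DMSO and at 26.02, 27.61 and 34.64 CPM in JQ1. Every KO library lay below every WT library. KO against WT differed by -2.31 in DMSO and by -2.30 in JQ1 on the log2 scale (edgeR quasi-likelihood test, adjusted p = 9.20e-08 and 7.65e-08). The difference of responses for Fmr1 was 0.0075 ± 0.15 (SE), with a 95% interval from -0.32 to 0.34.

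Libraries held 21643592 to 134110850 gene counts, and 15433 of 37310 genes passed the filter on low counts. Neuronal markers were abundant in all groups (group means of 2144 to 2876 CPM for Tubb3, a neuronal tubulin, and of 387.6 to 416.1 CPM for Neurod6, a factor of cortical excitatory neurons). The cultures also held RNA of glia and progenitors: markers of astrocytes and radial glia summed to between 1119 and 2719 CPM per library, with group means of 137.3 to 231.4 CPM for Vim, a filament protein of radial glia, and of 8.10 to 12.6 CPM for Gfap, one of mature astrocytes. Cx3cr1, a microglial receptor, averaged 0.194 to 1.04 CPM. The KO replicate 3 libraries stood apart in both treatments: Xist was at 4.29 and 4.34 CPM there against at least 230.5 CPM elsewhere, and the Y-linked gene Ddx3y was at 54.55 and 76.19 CPM against at most 46.11 CPM. WT_JQ1 replicate 3, the shallowest library, lay at -30.3 on the third principal component, where the other libraries ran from -7.45 to 11.8.

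No gene passed the test for a difference of responses. With edgeR's quasi-likelihood test and Benjamini-Hochberg adjustment, 0 of 15433 genes (0%) were called at an adjusted p under 0.05, and the smallest adjusted p was 1. At an unadjusted p under 0.05 there were 355 genes (2.30% of those tested), of which 196 (1.27%) had the higher response in KO and 159 (1.03%) the lower. DESeq2 and limma-voom also called 0 genes, with 235 and 357 at an unadjusted p under 0.05. The call stayed at 0 when any 1 of the 12 libraries was left out, and when both KO replicate 3 libraries were left out (265 genes at an unadjusted p under 0.05). The fit had no replicate block, and its 2.30% is below the share that evenly spread p-values would give. With the culture (genotype and replicate number) as a block, edgeR called 0 genes. It then had 688 genes at an unadjusted p under 0.05 and a smallest adjusted p of 0.15. The fit without a block made many calls for each response on its own: 8507 genes (55.1%) for the WT response and 8817 (57.1%) for the KO response. Between genotypes it called 1113 genes (7.21%) higher and 1198 (7.76%) lower in KO in DMSO. Under JQ1 it called 748 (4.85%) higher and 637 (4.13%) lower.

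The libraries bounded the difference closely for abundant genes and loosely for rare ones. All intervals given here come from the fit without a replicate block, and none were computed with the culture as a block. Among the 9672 genes with at least 10 CPM in some group, the 95% interval of the difference lay wholly within a 2-fold difference for 9652 (99.8%) and within a 1.5-fold difference for 9422 (97.4%). Among the 5761 genes under 10 CPM, 3429 (59.5%) had an interval within a 2-fold difference. The distance from the estimate to the end of its interval had a median of 0.187 (log2) in the first set and 0.634 in the second. The point estimate passed 2-fold for 160 genes, none of them with 10 CPM or more, and their highest group mean had a median of 0.347 CPM. For many rare genes a difference between genotypes was therefore not bounded within 2-fold by these libraries. The lack of a call for such genes is not the same as the absence of a difference.

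Only 2 genes of 10 CPM or more had a point estimate beyond 1.5-fold, and both are named here because of their values. Mid1, which encodes a ubiquitin ligase of the microtubules, had a difference of -0.68 ± 0.26 (SE; 95% interval -1.24 to -0.13). Its mean level was 72.5 ± 20.1 CPM (SD, n = 3) in WT in DMSO and 99.0 ± 16.6 CPM in WT in JQ1, against 8.44 ± 0.996 CPM and 7.26 ± 0.40 CPM in KO. The other, the gene model AY036118, had a difference of 0.76 ± 0.77 and an interval from -0.89 to 2.41.

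**Figure D1:**
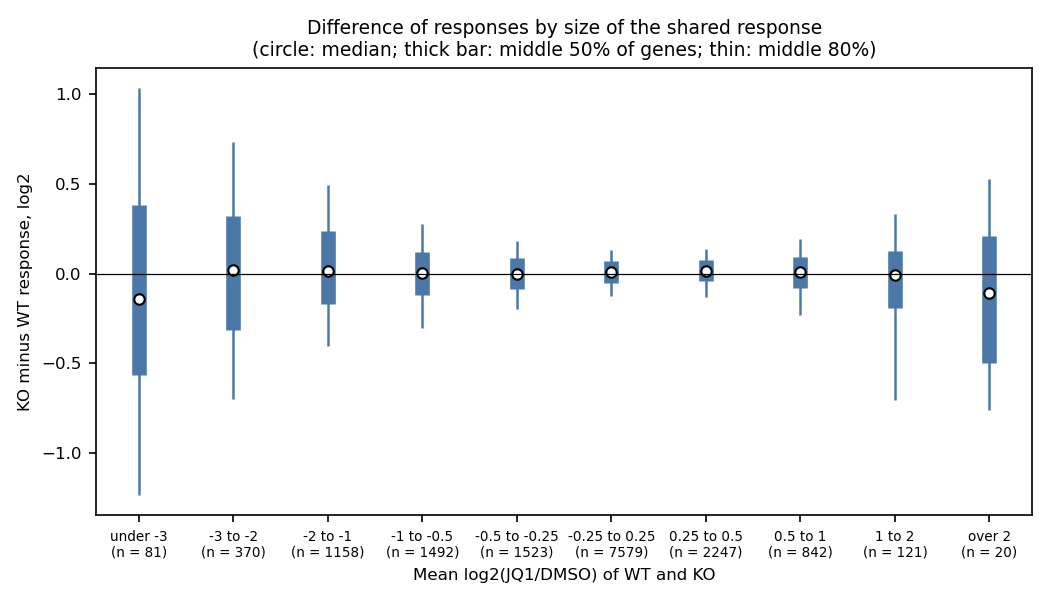
Difference of log2 JQ1 responses, KO minus WT (vertical axis), for all 15433 genes tested, grouped by the mean log2 response of both genotypes (horizontal axis, number of genes in brackets). Circles are medians, thick bars the middle 50% of genes and thin bars the middle 80%. Medians lie between -0.14 and 0.017, and the bars are widest in the outer groups, whose genes have low levels.

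Most genes called in 1 genotype were also called in the other. Of the genes called in WT, 7493 were also called in KO, which is 88.1% of the WT calls and 85.0% of the KO calls. All but 1 of them, 7492 genes, moved in the same direction, and the exception, Snx7, is described further on. Of the 1014 genes called in WT alone, 977 (96.4%) had the same sign in KO. Of the 1324 called in KO alone, 1272 (96.1%) had the same sign in WT. The genes called in both had a median absolute mean response of 0.456, while those called in WT alone had a median absolute WT response of 0.262 and those called in KO alone a median absolute KO response of 0.253.

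Across the 15433 genes the WT and KO responses had a Pearson r of 0.936 and a Spearman rank correlation of 0.922. Genes are not independent replicates, so these values are descriptions. The r was 0.971 over the genes of 10 CPM or more, and it was 0.44 over 25048 genes when no filter on low counts was applied. A line fitted with error in both variables had a slope of 0.991, KO on WT, and of 1.03 over the genes of 10 CPM or more. Beyond a 2-fold rise, 147 genes were called in WT and 137 in KO, with 93 in common (63.3% and 67.9% of each list). Beyond a 2-fold fall, 1599 and 1583 genes were called, with 1355 in common (84.7% and 85.6%).

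**Figure D2:**
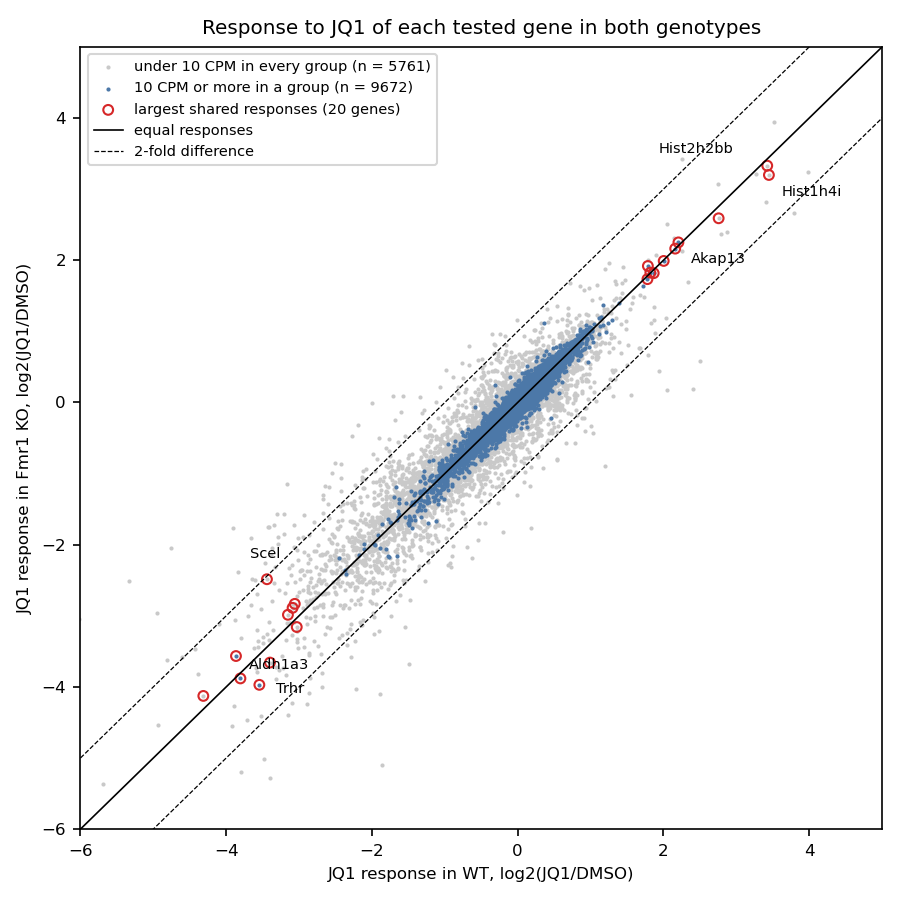
Log2 JQ1 response of each tested gene in WT (horizontal axis) and in Fmr1 KO (vertical axis). Blue points are the 9672 genes with 10 CPM or more in some group and grey points the other 5761. Red circles mark the 20 largest shared responses among genes of at least 3 CPM in some group. The solid line is equality and the dashed lines a 2-fold difference. Blue points keep within the dashed lines, and 2 genes lie outside the plotted range.

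The strongest responders were compared in size. There were 115 genes called in both genotypes with a mean rise of at least 2-fold, and their median response was 1.26 in WT and 1.25 in KO. The KO response was 99.7% of the WT response at the median (middle 50% of genes 90.1% to 109%), larger in 57 genes and smaller in 58. There were 1503 such falling genes, with a median response of -1.60 in WT and -1.56 in KO. The KO response was here 99.2% of the WT response at the median (86.5% to 113%), larger in 723 genes and smaller in 780. This choice left out genes that were not called in both genotypes. The ratios therefore describe the genes kept and are not a test of equal strength. The interval of the difference lay within a 2-fold difference for only 66 of the 115 rising genes (57.4%). It did so for 687 of the 1503 falling genes (45.7%), so many single genes were not closely bounded.

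Akap13, which encodes an anchoring protein for protein kinase A, was among the most induced genes in both genotypes. It stood at 13.27, 12.69 and 14.0 CPM in WT in DMSO and at 62.59, 58.98 and 63.12 CPM in WT in JQ1. The KO libraries held 12.32, 13.37 and 12.63 CPM in DMSO and 67.66, 58.03 and 57.04 CPM in JQ1. The JQ1 and DMSO libraries did not overlap, and the WT and KO ranges overlapped within each treatment. The response was 2.21 in WT and 2.25 in KO, and their difference was 0.045 ± 0.098 (SE; 95% interval -0.17 to 0.26).

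Shared responses were ranked among genes of at least 3 CPM in some group with a proper gene symbol, so rarer genes were left out. Linker and core histone genes made up 5 of the 10 largest shared rises in this ranking. Hist1h1c, the gene of a linker histone, rose from 9.38, 9.19 and 8.91 CPM to 42.09, 40.79 and 39.91 CPM in WT. In KO it rose from 9.72, 10.86 and 12.32 CPM to 45.36, 49.30 and 52.77 CPM. Its difference of responses was 0.0020 ± 0.11. Hist2h2bb had the largest mean response of the 10 (3.43 in WT, 3.33 in KO), from a level of 0.54 CPM in WT in DMSO. Its difference was -0.095, with an interval from -0.54 to 0.35. Txnip, an arrestin that binds thioredoxin, had the largest positive difference among the 10, at 0.13 (interval -0.072 to 0.34), and Hist1h4i the largest negative one, at -0.25 (-0.71 to 0.22). All 10 intervals held 0 and lay within a 2-fold difference. The other members were Hist1h4h, Hist1h2bc, Arid5a, Chchd7 and Peg10.

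The 10 largest shared falls, again among genes of at least 3 CPM in some group, were less tightly bounded, and their JQ1 libraries held few counts. Aldh1a3, an enzyme that makes retinoic acid, stood at 23.03, 25.80 and 21.54 CPM in WT in DMSO and at 1.64, 1.69 and 1.26 CPM in WT in JQ1. In KO the levels were 28.97, 32.96 and 32.79 CPM in DMSO and 1.14, 3.46 and 3.05 CPM in JQ1. KO lay above WT in every DMSO library, while under JQ1 the ranges overlapped. Its difference of responses was 0.30 ± 0.32. Rlbp1, a retinaldehyde-binding protein, fell from 30.71, 32.90 and 34.03 CPM to 2.15, 2.71 and 1.49 CPM in WT. In KO it fell from 24.19, 26.04 and 31.50 CPM to 1.14, 2.34 and 1.77 CPM, a difference of -0.076 ± 0.27. Among the others were Matn4, Trhr, Slc25a18, Cryab, Sidt1, Scel and Krt77. Intervals lay within a 2-fold difference for 6 of the 10 and held 0 for 9, the exception being Scel.

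Genes of the pathway that JQ1 blocks had close values in both genotypes. Hexim1, the P-TEFb inhibitor that is often read as a marker of BET inhibition, stood at 28.83, 29.22 and 29.90 CPM in WT in DMSO and at 94.74, 92.71 and 102.5 CPM in WT in JQ1. The KO values were 29.77, 28.58 and 31.21 CPM in DMSO and 94.68, 91.58 and 92.88 CPM in JQ1. The treatments did not overlap, and the WT and KO ranges overlapped within each. Its difference of responses was -0.078 ± 0.069, with an interval from -0.23 to 0.070.

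Genes of the BET family were read next. Brd2 rose from 433.7, 419.9 and 406.8 CPM to 657.6, 651.0 and 639.1 CPM in WT, and from 435.9, 444.3 and 426.9 CPM to 668.2, 678.3 and 647.0 CPM in KO. Its difference was -0.019 (interval -0.15 to 0.11). Brd3 also rose in each genotype, with a difference of -0.0016 (-0.13 to 0.13). Brdt, the testis member, fell in each, with a difference of -0.071. Among 20 tested genes of P-TEFb, the 7SK particle and their partners, 14 rose and 4 fell in WT, and 12 rose and 3 fell in KO, and all 20 intervals lay within a 1.5-fold difference. For comparison, 25.9% of all genes rose and 29.3% fell in WT, and 27.7% rose and 29.4% fell in KO.

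Of 67 replication-dependent histone cluster genes in the table, 27 passed the filter on low counts. Of these 27, 25 rose in WT and 24 in KO, and 0 fell. Over all genes tested, 25.9% rose and 29.3% fell in WT, and 27.7% rose and 29.4% fell in KO. Some of the 27 passed only through their JQ1 libraries and so had to be higher there, and their counts are a description of the genes that passed. Their median response was 2.05 in WT and 2.07 in KO. The median difference was -0.095, against 0.0097 over all genes tested, and it was 0.0057 without WT_JQ1 replicate 2. Only 11 of the 27 intervals lay within a 2-fold difference, and single estimates ran from -1.11 to 2.72. These genes share near-identical sequences, so their counts are uncertain, and most of their transcripts lack the poly(A) tail.

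The genes of smallest unadjusted p follow, with the 10 in each direction that had at least 1 CPM in some group and a proper gene symbol. Their adjusted p was 1 throughout (edgeR quasi-likelihood test), so none is a called difference, and their order is that of the test itself. The unadjusted p ran from 9.04e-04 to 0.00751 where the KO response was higher and from 3.37e-04 to 0.00391 where it was lower.

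Snx7, a sorting nexin of the endosomes, was the only gene called in both genotypes in opposite directions. It stood at 27.60, 28.59 and 26.02 CPM in WT in DMSO and at 22.83, 22.14 and 20.87 CPM in WT in JQ1. In KO it stood at 26.10, 23.83 and 24.14 CPM in DMSO and at 34.46, 24.76 and 28.66 CPM in JQ1. The WT libraries did not overlap between treatments, whereas in KO the lowest JQ1 library lay within the DMSO range. The response was -0.32 in WT (adjusted p = 0.0116) and 0.24 in KO (adjusted p = 0.0388), and the difference was 0.56 ± 0.13 with an interval from 0.27 to 0.84.

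A smaller fall in KO was estimated for Osbpl1a, an oxysterol-binding protein of late endosomes. It stood at 161.7, 162.9 and 139.7 CPM in WT in DMSO and at 80.53, 88.48 and 68.95 CPM in WT in JQ1. The KO libraries held 185.0, 179.1 and 169.1 CPM in DMSO and 122.8, 115.2 and 117.1 CPM in JQ1. Every KO library in JQ1 lay above every WT library in JQ1. Both genotypes fell, by 0.96 in WT and 0.59 in KO on the log2 scale, and the difference was 0.37 ± 0.11.

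Pipox and Kctd12b, at 1.56 and 1.25 CPM in WT in DMSO, also fell in both genotypes. Pipox, a peroxisomal oxidase, had the values 1.38, 1.66 and 1.65 CPM in WT in DMSO and 0.385, 0.469 and 0.560 CPM in WT in JQ1. In KO the values were 0.909, 0.990 and 1.11 CPM in DMSO and 0.607, 0.702 and 0.509 CPM in JQ1. The genotypes did not overlap in DMSO and did overlap in JQ1. The difference was 1.09 ± 0.26 for Pipox and 1.14 ± 0.28 for Kctd12b. Scel, which encodes the cornified envelope protein sciellin, fell by 3.44 in WT and by 2.49 in KO, a difference of 0.95 ± 0.30. Its WT libraries in DMSO held 3.40, 4.40 and 4.35 CPM against 1.91, 2.31 and 2.30 CPM in KO, and all JQ1 libraries held under 0.5 CPM.

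Oma1, a protease of the mitochondrial inner membrane, stood at 9.67, 9.42 and 9.60 CPM in WT in DMSO and at 10.96, 9.74 and 10.78 CPM in WT in JQ1. In KO the levels were 6.54, 6.95 and 7.46 CPM in DMSO and 9.42, 10.01 and 10.32 CPM in JQ1. KO lay below WT in DMSO without overlap, and the ranges overlapped in JQ1. Oma1 rose in KO (0.51, adjusted p = 6.30e-05) and did not pass in WT (0.13, adjusted p = 0.182), with a difference of 0.38 ± 0.11. Etfdh, of the electron transfer flavoprotein pathway, rose in both (0.13 in WT, 0.39 in KO), with a difference of 0.26 ± 0.074. Dbt, a subunit of the branched-chain keto acid dehydrogenase, had a response of 0.0065 in WT and 0.30 in KO, with a difference of 0.29 ± 0.093. Over the list of 76 nuclear genes of mitochondrial oxidative phosphorylation, the median difference was -0.0053.

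The remaining genes with the higher KO response were Rgs9bp, with a difference of 0.73 ± 0.20, and Cdc42se1, with 0.19 ± 0.059. Rgs9bp anchors a regulator of G protein signalling and stood at 2.88 CPM in WT and 1.12 CPM in KO in DMSO. Cdc42se1, a small effector of CDC42, rose in both genotypes.

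Ptpru, a receptor tyrosine phosphatase, had the smallest p of all genes. It stood at 39.27, 37.30 and 34.33 CPM in WT in DMSO and at 11.56, 12.30 and 11.06 CPM in WT in JQ1. The KO values were 63.01, 60.62 and 60.46 CPM in DMSO and 12.24, 15.28 and 13.49 CPM in JQ1. The genotypes were far apart in DMSO and close in JQ1, where 1 KO library fell within the WT range. The fall was 1.65 in WT and 2.16 in KO on the log2 scale, and the difference was -0.50 ± 0.11, with an interval from -0.73 to -0.27.

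Sema6a, a transmembrane semaphorin that guides axons and migrating neurons, stood at 71.79, 67.04 and 70.50 CPM in WT in DMSO and at 70.28, 72.13 and 65.73 CPM in WT in JQ1. In KO it stood at 79.86, 81.62 and 83.05 CPM in DMSO and at 68.95, 68.22 and 66.02 CPM in JQ1. The KO libraries in DMSO lay above all others, and the remaining groups overlapped. The response was -0.0044 in WT (adjusted p = 0.944) and -0.27 in KO (adjusted p = 1.79e-04), with a difference of -0.26 ± 0.064.

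Sfrp1, a secreted antagonist of Wnt signalling, showed the same arrangement. It stood at 142.7, 163.8 and 162.0 CPM in WT in DMSO, at 159.0, 170.1 and 152.1 CPM in WT in JQ1, at 215.8, 225.7 and 218.4 CPM in KO in DMSO and at 149.3, 184.7 and 180.8 CPM in KO in JQ1. Its difference was -0.40 ± 0.11. For Fzd8, a Wnt receptor, KO in DMSO (11.21, 11.17 and 11.64 CPM) overlapped WT in DMSO (12.13, 11.56 and 10.48 CPM). Under JQ1, KO held 8.66, 9.75 and 9.30 CPM against 12.21, 11.62 and 11.86 CPM in WT, without overlap. The difference of responses for Fzd8 was -0.35 ± 0.10.

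Cux2, a factor of upper-layer projection neurons, fell in both genotypes (-0.24 in WT, -0.55 in KO), from 62.98 CPM in WT and 78.40 CPM in KO in DMSO to 53.17 and 53.60 CPM in JQ1. Its difference was -0.31 ± 0.085. Cdk5r2, an activator of the neuronal kinase CDK5, rose in both (0.41 in WT, 0.14 in KO), from 164.8 and 231.9 CPM to 218.8 and 254.9 CPM, with a difference of -0.27 ± 0.075. Bcl2l11, which encodes the cell death protein BIM, had a response of 0.13 in WT and of -0.35 in KO, with a difference of -0.48 ± 0.13. Abcg1, a cholesterol exporter, rose in WT (0.22) and had a response of -0.10 in KO that did not pass, with a difference of -0.32 ± 0.094. Sema3d, a secreted semaphorin, fell in both, by 1.75 in WT and by 2.57 in KO, from 4.05 and 4.61 CPM, with a difference of -0.82 ± 0.22. Btbd17 fell in both as well, with a difference of -0.57 ± 0.17.

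The difference of responses and the comparison of KO with WT in DMSO share the DMSO libraries, so a high KO value in DMSO enters both. All these differences are centred by TMM on the bulk of the genes tested. Scaling to the ERCC spike-ins moved the median difference of all genes to 0.778 and with it 9 of the 10 genes named for a lower KO response, all but Sema3d, to a positive value, and it still called 0 genes. Under this scaling the median response of all genes was -0.642 in WT and 0.132 in KO. The spike-in share of the counts ran from 0.119% to 0.173% in WT in DMSO and from 0.174% to 0.262% in WT in JQ1, without overlap. In KO it ran from 0.169% to 0.350% in DMSO and from 0.193% to 0.243% in JQ1, with overlap. The part of these shares in the result was not tested.

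**Figure D3:**
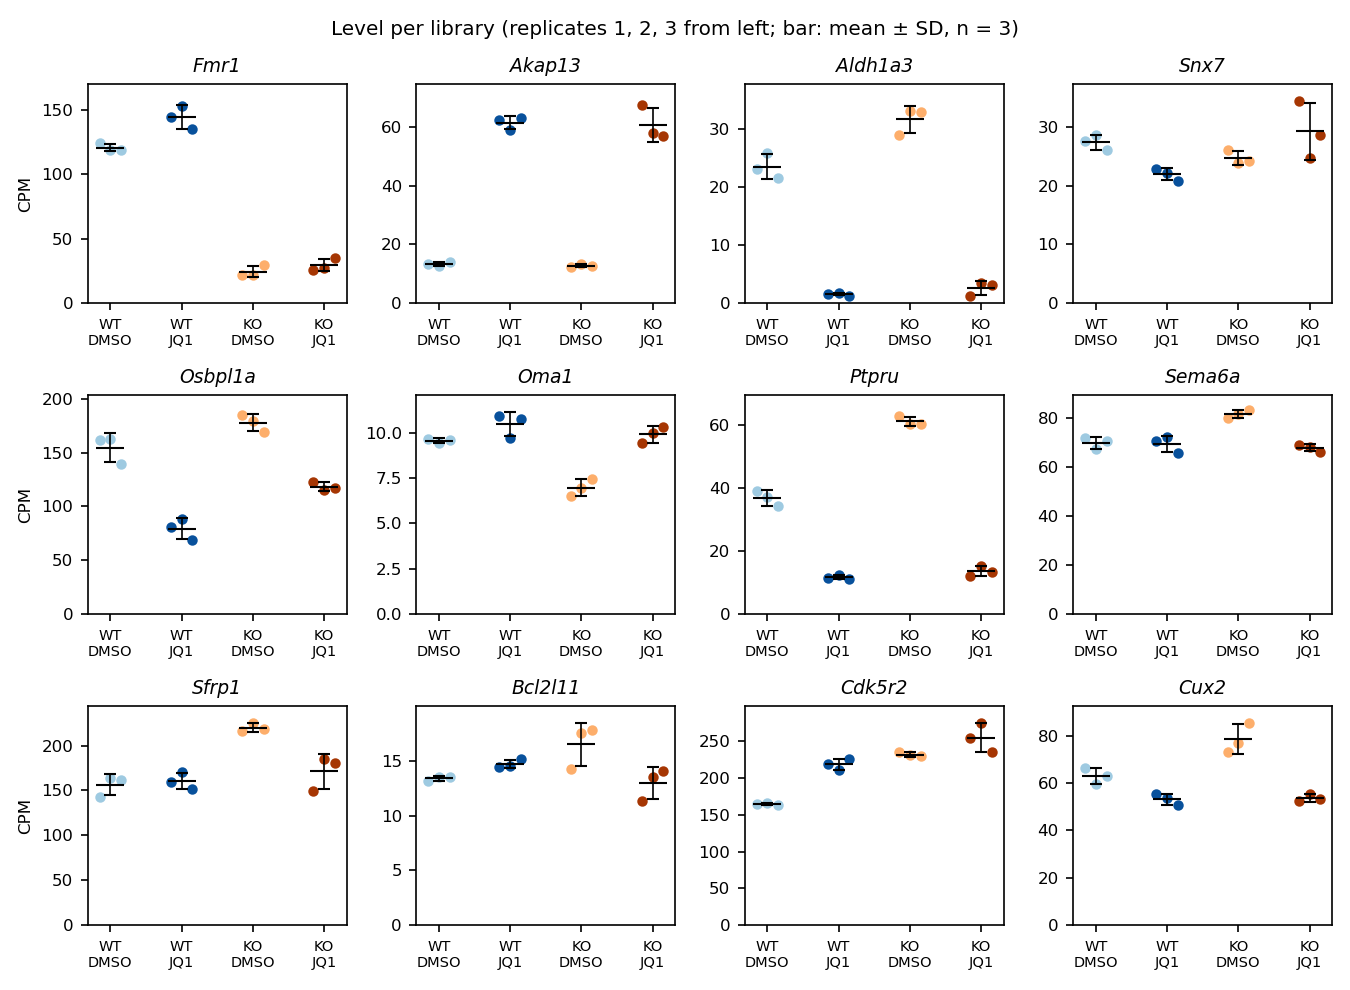
Level of 12 genes in CPM (vertical axes, from 0) in each of the 12 libraries, by group, with replicates 1, 2 and 3 from left to right and bars for the mean and SD (n = 3). Fmr1 is separated by genotype, Akap13 and Aldh1a3 by treatment in both genotypes, and Ptpru, Sema6a and Sfrp1 are highest in KO in DMSO.

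**Figure D4:**
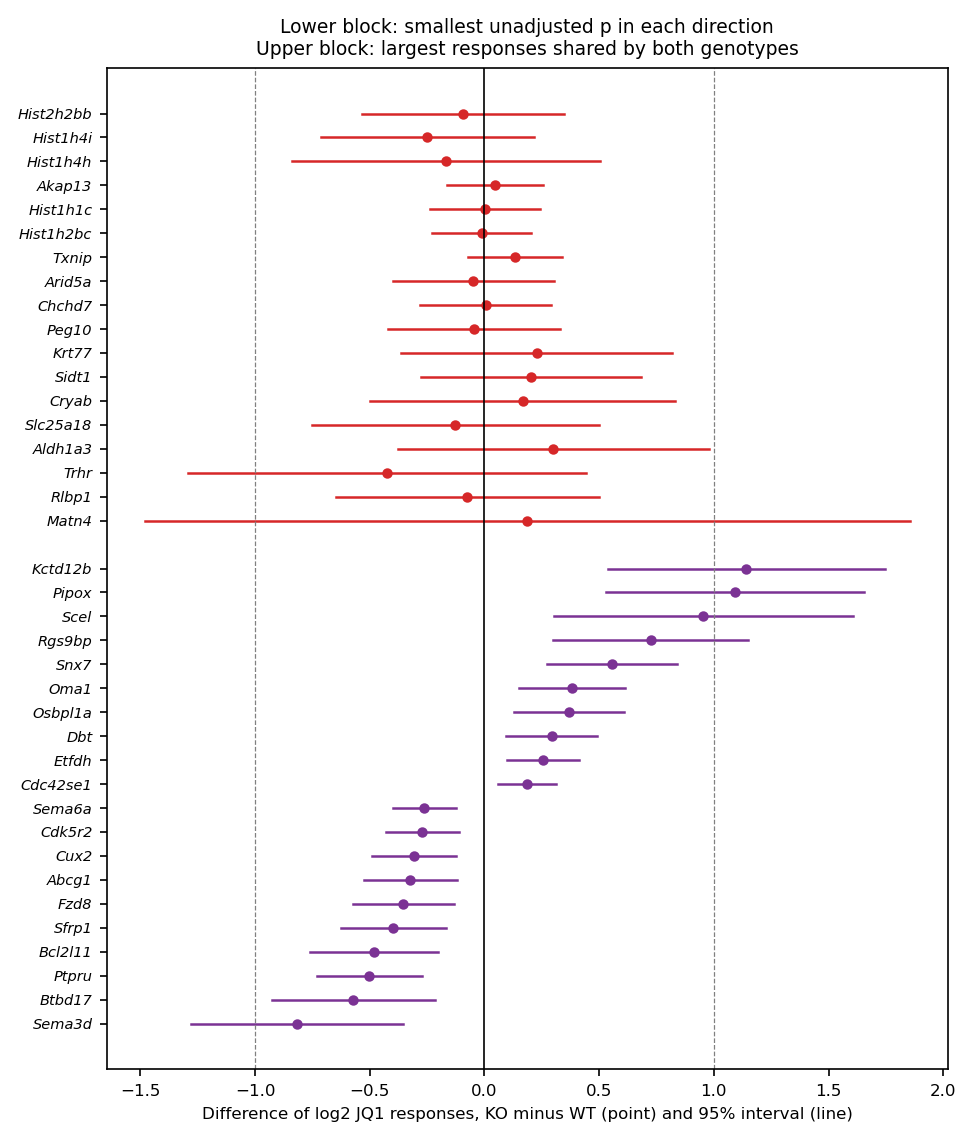
Difference of log2 JQ1 responses, KO minus WT (points), with 95% intervals not adjusted for the number of genes (lines). The upper block holds 18 of the 20 largest shared responses among genes of at least 3 CPM in some group. The lower block, where Scel is drawn, holds the genes of smallest unadjusted p in each direction. Dashed lines mark a 2-fold difference. All intervals of the upper block hold 0, and all those of the lower block exclude it because p chose them.

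Transcripts that FMRP binds were read as a list, since they are the best known direct targets of the missing protein. Of 71 tested, 24 rose and 10 fell in WT, and 15 rose and 11 fell in KO, where the shares over all genes were 25.9% and 29.3% in WT and 27.7% and 29.4% in KO. Their median response was 0.091 in WT and -0.00012 in KO, and the median difference was -0.085 against 0.0097 over all genes. None was called for the difference, 0 had an unadjusted p under 0.05 with the higher response in KO, and 4 had one with the lower response, against 1.27% and 1.03% of all genes. The median was -0.14 without WT_DMSO replicate 3 and -0.021 without KO_JQ1 replicate 3, and it was negative in all 12 fits that left out 1 library. For 70 of the 71 genes the interval lay within a 2-fold difference, and for 63 within a 1.5-fold difference.

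The 4 FMRP-bound transcripts were Nrxn2, Cacna1a, Chd8 and Mll2. In this and the other lists, members given with a difference of responses are those of smallest unadjusted p for it. Their separation between groups is therefore not independent of that choice. Nrxn2, a presynaptic adhesion protein, stood at 632.4, 620.5 and 656.9 CPM in WT in DMSO and at 841.9, 840.6 and 821.5 CPM in WT in JQ1. The KO libraries held 752.6, 755.7 and 767.1 CPM in DMSO and 884.6, 932.2 and 819.5 CPM in JQ1. It rose in both genotypes (0.39 in WT, 0.21 in KO) from a higher level in KO, and the difference was -0.18 ± 0.069. Chd8, a chromatin remodeller and autism risk gene, rose in WT (0.27) and did not pass in KO (0.11), with a difference of -0.16 ± 0.075. Mll2, a histone H3 lysine methyltransferase, had a difference of -0.32 ± 0.15, and Cacna1a, a presynaptic calcium channel, one of -0.20 ± 0.089. Of 40 autism risk genes, 20 rose and 5 fell in WT and 15 rose and 5 fell in KO. Over all genes, 25.9% rose and 29.3% fell in WT, and 27.7% rose and 29.4% fell in KO. The median difference of the 40 genes was -0.045. The close relatives of Fmr1 had differences of 0.094 ± 0.065 for Fxr1 and 0.080 ± 0.062 for Fxr2.

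Of 81 tested cytosolic ribosomal protein genes, 62 rose and 0 fell in WT, and 48 rose and 2 fell in KO, and the rest did not pass. Over all genes 25.9% rose and 29.3% fell in WT, and 27.7% rose and 29.4% fell in KO. The list had median responses of 0.23 and 0.16. The median difference was -0.065, and it lay between -0.11 (without KO_DMSO replicate 2) and -0.032 (without WT_JQ1 replicate 3) in the fits that left out 1 library. None was called for the difference, and 80 of 81 intervals lay within a 1.5-fold difference. At an unadjusted p under 0.05, 4 had the lower response in KO (Rpl28, Rpl29 and Rplp2 among them) and 0 the higher. The shares over all genes were 1.03% and 1.27%. Rpl28 stood at 58.61, 70.67 and 74.38 CPM in WT in DMSO and at 87.11, 83.14 and 86.97 CPM in WT in JQ1. In KO the levels were 91.40, 83.09 and 97.17 CPM in DMSO and 98.82, 97.30 and 90.51 CPM in JQ1, so that only the WT libraries separated by treatment. Pseudogene copies make the counts of ribosomal protein genes uncertain. For 56 translation initiation factor genes the median difference was 0.014.

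In the mTOR and PI3K pathway, which controls translation and is studied in fragile X models, 12 of 27 genes rose and 2 fell in each genotype, against 25.9% and 29.3% of all genes in WT and 27.7% and 29.4% in KO. Their median difference was -0.052, and it was -0.0096 without KO_JQ1 replicate 3 and -0.077 without KO_DMSO replicate 3. Deptor, an inhibitor of mTOR, stood at 6.48, 6.66 and 6.77 CPM in WT in DMSO and at 2.52, 3.08 and 2.85 CPM in WT in JQ1. The KO values were 9.02, 10.75 and 9.79 CPM in DMSO and 2.61, 3.36 and 2.81 CPM in JQ1. The genotypes were apart in DMSO and overlapped in JQ1. Deptor fell by 1.22 in WT and by 1.73 in KO on the log2 scale, and the difference was -0.51 ± 0.16 (unadjusted p = 0.00636, adjusted p = 1, edgeR). Sgk1, a kinase downstream of PI3K, had a difference of 0.22 ± 0.089.

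Immediate early genes are those that neuronal activity induces first. Of 33 tested, 7 rose and 13 fell in WT, and 6 rose and 11 fell in KO, which is near the shares over all genes (25.9% and 29.3% in WT, 27.7% and 29.4% in KO). Their median difference was -0.028 and ran from -0.10 (without KO_JQ1 replicate 2) to 0.0065 (without KO_JQ1 replicate 3). Egr1, an activity-induced zinc finger factor, stood at 9.20, 8.69 and 11.31 CPM in WT in DMSO and at 19.35, 19.35 and 17.93 CPM in WT in JQ1. In KO it stood at 17.41, 15.35 and 22.59 CPM in DMSO and at 24.04, 27.27 and 30.75 CPM in JQ1. It rose in both genotypes (0.96 in WT, 0.57 in KO), and the difference was -0.39 ± 0.19, with an interval from -0.79 to 0.0084. Arc, a regulator of AMPA receptor traffic, moved the other way. It fell in both genotypes, from 1.93, 1.71 and 2.04 CPM to 0.731, 0.761 and 0.887 CPM in WT and from 1.91, 1.67 and 1.84 CPM to 0.818, 1.05 and 1.05 CPM in KO. The difference for Arc was 0.41 ± 0.21 (interval -0.039 to 0.86). Cyr61, a secreted matrix protein, had 0.51 ± 0.22 and Klf10, a zinc finger factor, -0.25 ± 0.11. Bdnf, the neurotrophin among the late activity-regulated genes, had 0.35 ± 0.24.

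Among receptors and channels of the synapse no difference was called. Gria1, an AMPA receptor subunit, stood at 278.5, 279.3 and 296.8 CPM in WT in DMSO and at 226.5, 219.7 and 235.7 CPM in WT in JQ1. The KO libraries held 372.6, 365.7 and 337.4 CPM in DMSO and 249.8, 262.2 and 245.6 CPM in JQ1. KO lay above WT in both treatments, and by more in DMSO. Gria1 fell in both genotypes (-0.33 and -0.51), with a difference of -0.18 ± 0.072. Gabra5, a GABA-A receptor subunit, fell from 133.3, 130.3 and 124.1 CPM to 81.96, 85.35 and 78.34 CPM in WT. In KO it fell from 137.0, 141.9 and 131.5 CPM to 95.47, 97.21 and 98.56 CPM, a difference of 0.16 ± 0.066. Slc17a6, a vesicular glutamate transporter, had a difference of -0.18 ± 0.072. Grin2c, an NMDA receptor subunit, had one of 1.35 ± 0.56 at levels of at most 0.83 CPM in any library.

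The median difference was -0.0040 over 17 AMPA, kainate and NMDA receptor genes, 0.011 over 10 genes of metabotropic glutamate receptors and Homer proteins, 0.073 over 13 GABA-A receptor genes, -0.039 over 34 presynaptic genes and -0.014 over 30 postsynaptic scaffold genes. It was -0.021 over 44 potassium channel genes and -0.014 over 32 sodium and calcium channel genes. All 30 postsynaptic scaffold genes and all 13 GABA-A receptor genes had an interval within a 1.5-fold difference. Of 35 neuropeptide and peptide receptor genes, 28 fell in WT and 24 in KO, and 0 rose. Over all genes, 29.3% fell and 25.9% rose in WT, and 29.4% fell and 27.7% rose in KO. Crh passed the filter on low counts only through DMSO libraries and so had to be lower under JQ1. The counts of falling genes describe the genes that passed. The 35 genes had median responses of -1.13 in WT and -0.96 in KO. Their median difference was 0.056, but -0.066 without KO_JQ1 replicate 2, and 23 of the 35 intervals lay within a 2-fold difference.

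Of 49 tested axon guidance genes, 4 had an unadjusted p under 0.05 with the lower response in KO and 0 with the higher, against 1.03% and 1.27% of all genes. None was called. The 4 were Sema6a and Sema3d, described above, with Efna5 and Ntng2. Efna5, an ephrin ligand, stood at 2.46, 2.61 and 2.70 CPM in WT in DMSO and at 2.71, 2.92 and 2.99 CPM in WT in JQ1. In KO the levels were 3.76, 3.16 and 3.54 CPM in DMSO and 2.35, 2.93 and 2.66 CPM in JQ1. KO lay above WT in DMSO without overlap, and in JQ1 the ranges overlapped. The difference was -0.52 ± 0.16, and for Ntng2, a membrane-bound netrin, it was -0.19 ± 0.079. In the list 9 genes rose and 13 fell in WT, and 9 rose and 16 fell in KO, which is near or under the shares over all genes. Its median difference was -0.033, and -0.10 without WT_DMSO replicate 3, and 42 intervals lay within a 1.5-fold difference.

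Of 23 tested cholesterol synthesis genes, 22 fell in WT and 20 in KO, and 0 rose, where 29.3% and 29.4% of all genes fell. The median was -0.44 in WT and -0.38 in KO, and the median difference was 0.027, but -0.0060 without KO_DMSO replicate 3, with single differences from -0.077 to 0.15. Sc4mol, a sterol demethylase, stood at 215.2, 236.4 and 222.5 CPM in WT in DMSO and at 162.5, 171.8 and 169.9 CPM in WT in JQ1. The KO values were 214.1, 214.8 and 221.1 CPM in DMSO and 174.6, 176.4 and 188.0 CPM in JQ1. Its difference was 0.15 ± 0.068, the largest of the list, and all 23 intervals lay within a 1.5-fold difference.

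Markers of cell types were read beside these results. In bulk RNA, fewer cells of a type and less RNA per cell cannot be told apart. Of 25 astrocyte and radial glia markers, 17 fell and 1 rose in WT, and 16 fell and 2 rose in KO. Over all genes, 29.3% fell and 25.9% rose in WT, and 29.4% fell and 27.7% rose in KO. The median difference of the 25 markers was 0.00012, and it ran from -0.16 to 0.16 when 1 library was left out. Their summed level was 2319 to 2719 CPM in WT in DMSO and 1716 to 2166 CPM in WT in JQ1. In KO it was 1739 to 2240 CPM in DMSO and 1119 to 1672 CPM in JQ1. The median difference was -0.076 over 27 inhibitory neuron markers, and it ran from -0.21 (without WT_DMSO replicate 3) to 0.033 (without WT_JQ1 replicate 3). It was -0.0060 over 19 deep-layer and -0.017 over 17 upper-layer projection neuron markers. An unadjusted p under 0.05 was held by Cux2, described above, alone among the 17 upper-layer markers. Nes, a filament of neural progenitors (-0.32 ± 0.14), was 1 of 25 astrocyte and radial glia markers. Ocln, a tight junction protein (-0.62 ± 0.20), was 1 of 10 endothelial and mural markers, and Ccnd1, a cyclin (-0.23 ± 0.089), 1 of 34 cell cycle genes. The inhibitory, deep-layer, Cajal-Retzius, oligodendrocyte, microglia, matrix and sex-linked lists had 0. Over all genes the share was 2.30%, and these counts are not read as a result about cell types.

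Among lists of 10 or more tested genes, the median difference was farthest from 0 for 16 microglia markers (-0.11) and for 10 endothelial and mural cell markers (0.15). Without KO_JQ1 replicate 2 the first was 0.093, and without KO_DMSO replicate 2 the second was -0.086, so neither kept its sign. The summed level of microglia markers was 41.2 to 54.0 CPM in the DMSO libraries and 26.3 to 34.9 CPM in the JQ1 libraries. Their part in other results was not tested. Of 43 lists described, 40 held 10 or more tested genes, and 38 of these 40 had a median difference within 0.1 of 0, from -0.11 to 0.15 in all. No list held a gene called for the difference. Leaving out 1 library at a time, 11 of the 43 lists kept the sign of their median difference in all 12 fits.

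**Figure D5:**
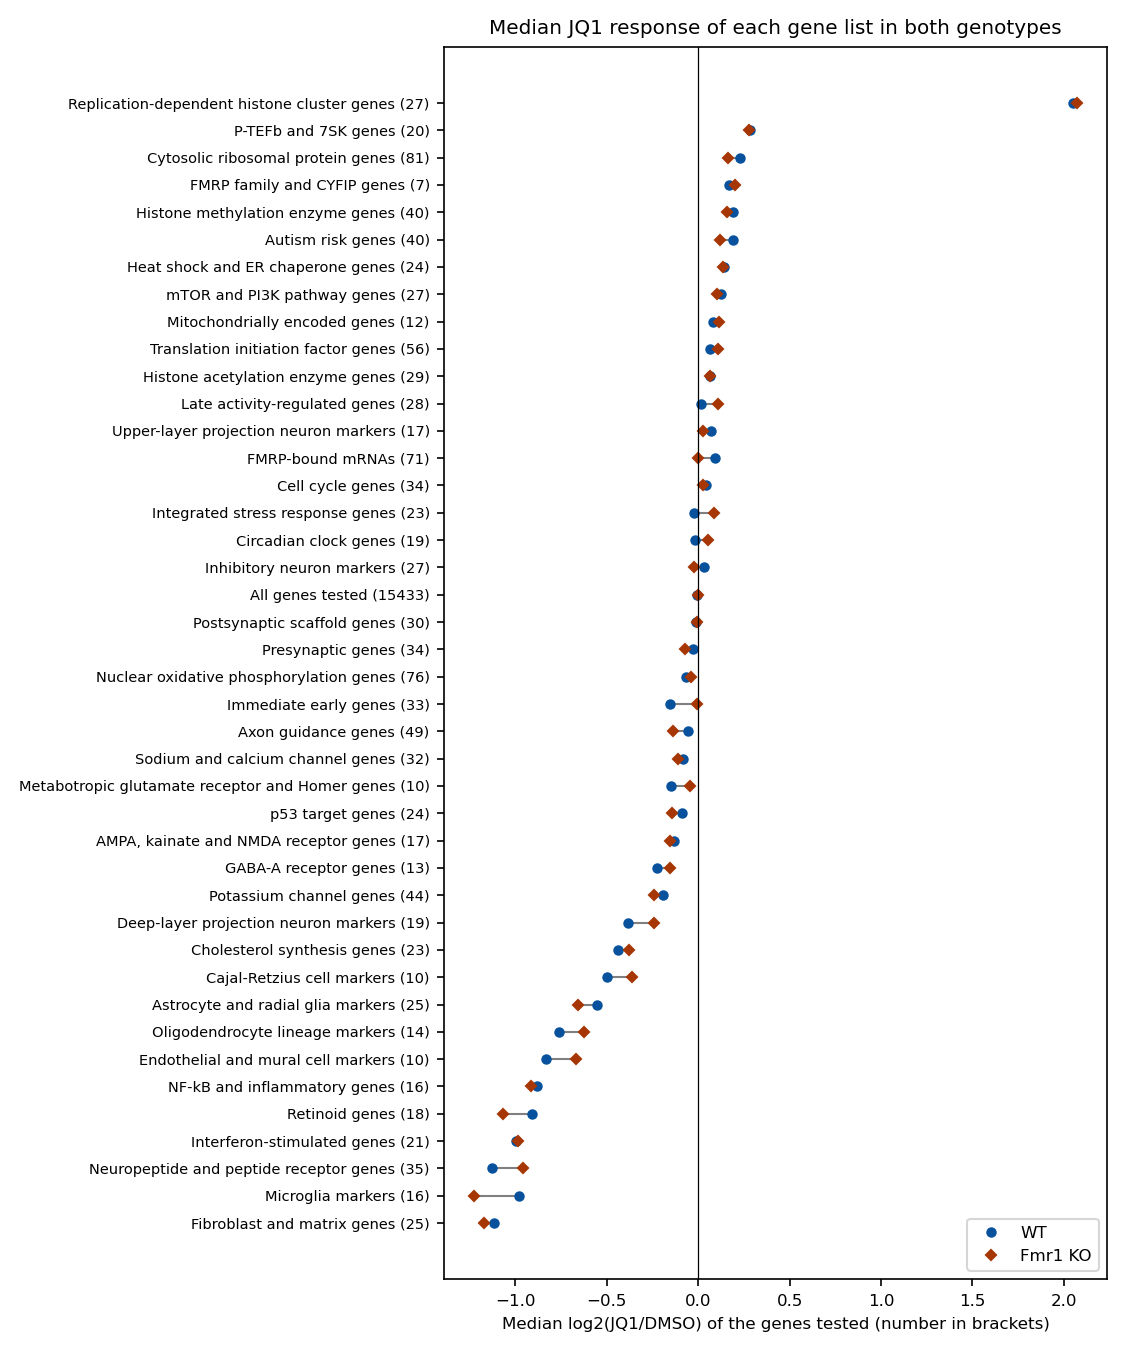
Median log2 JQ1 response of each gene list with 7 or more tested genes in WT (blue circles) and Fmr1 KO (brown diamonds), with the number of genes tested in brackets. Histone cluster genes lie near 2 in both genotypes, fibroblast and matrix genes at -1.12 and -1.17, and the lines that join the genotypes are short beside the spread between lists.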

How the data were processed

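RNA of 12 libraries of cultured cortical neurons was measured as 75 bp single reads. The deposited table holds the authors' raw read counts per Ensembl gene. Per the submitters' processing notes, TopHat2 2.1.0, SAMtools 0.1.19, HTSeq 0.6.1 and the mm9 build were used. Strandedness and counting mode are unknown (not given in the sources used here), which leaves overlapping and antisense genes uncertain. The authors' table of KO against WT was not used. A few genes are not reported here.

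Here, genes were kept with filterByExpr of edgeR 4.0.16 (R 4.3.3) at a minimum count of 10, leaving 15433 of 37310, without the 92 ERCC spike-in sequences. Libraries of 21643592 to 134110850 counts were scaled with TMM. A model with 4 group means was fitted to all 12 libraries (8 residual degrees of freedom, biological coefficient of variation 6.69%), and quasi-likelihood F tests of 5 contrasts were adjusted over all genes tested (Benjamini-Hochberg). Standard errors come from the fit's working weights and quasi-dispersions. The fit was also run on simulated counts that held no shared culture effect, and no result given here rests on that run. Intervals are at 95% and not adjusted over genes. CPM use TMM-scaled library sizes.

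Named genes were Fmr1, the 10 genes of smallest unadjusted p in each direction (at least 1 CPM and a proper symbol), the 10 largest shared rises and falls (at least 3 CPM, called in both genotypes), genes called in opposite directions, and up to 4 members of each of 43 lists. These list members were those of smallest unadjusted p for the difference of responses within their list. Members and lists were chosen with earlier results of these data known. Alternatives were RLE scaling, DESeq2 1.42.0, limma-voom (limma 3.58.1), other filters, each library left out, both KO replicate 3 libraries left out, replicate blocks, spike-in scaling and thinned counts.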

Additional observations from a re-analysis of the deposited data

How the results depend on the processing

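The count of genes called for the difference of responses was 0 under every alternative run, with an unadjusted p under 0.05 in 245 to 582 genes when 1 library was left out. With both KO replicate 3 libraries left out, KO against WT in JQ1 gave 2469 genes in place of 1385. When 1 library was left out, the calls of KO against WT ran from 885 to 2764 in DMSO and from 534 to 2027 in JQ1. Scaling to ERCC spike-ins gave 5522 calls for JQ1 in WT (36 higher, 5486 lower), 1325 in KO (220 higher, 1105 lower), 13017 for KO against WT in DMSO and 18 for the same under JQ1. It gave 1823 genes at an unadjusted p under 0.05 for the difference of responses. Under it the medians of all genes were -0.642 for WT, 0.132 for KO and 0.778 for their difference. It gave 0.281 for Ptpru, 0.495 for Sema6a, 0.371 for Sfrp1, 0.274 for Bcl2l11, 0.505 for Cdk5r2, 0.455 for Cux2, 0.429 for Fzd8, 0.168 for Btbd17 and 0.451 for Abcg1. These reversals come with the shift of all genes, and the cause of that shift was not tested.

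Labels share replicate numbers but do not say that a number marks a shared culture. Deviations from the group means correlated at 0.094, 0.16 and 0.15 for same-numbered DMSO and JQ1 libraries in WT and at 0.23, 0.29 and 0.21 in KO, and all 3 numbers correlated best with their own in each genotype. With the culture as a replicate block, the difference of responses had 0 calls, 688 genes at an unadjusted p under 0.05 and a smallest adjusted p of 0.15 (edgeR), and JQ1 gave 9292 calls in WT and 9690 in KO. With the replicate number as a block it had 0 calls and 432 genes at an unadjusted p under 0.05, and KO against WT gave 2789 calls in DMSO and 1953 in JQ1.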

Other observations

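Lists of inflammatory, interferon, retinoid and matrix genes held more falling than rising members in both genotypes, and their members differed in either direction. Of 21 interferon-stimulated genes tested, 14 fell and 1 rose in WT and 15 fell and 2 rose in KO, with a median difference of -0.012 and single differences from -0.70 to 1.45. Of 16 NF-kB and inflammatory genes, 12 fell in each genotype and 0 rose, with a median difference of 0.011 and a range from -0.69 to 1.37. Of 18 retinoid genes, 13 fell and 1 rose in WT and 15 fell and 0 rose in KO, with a median difference of -0.053 and a range from -0.82 to 0.97. Of 25 fibroblast and matrix genes, 18 fell in WT and 20 in KO, and 1 rose in each, with a median difference of -0.047 that was 0.094 without KO_JQ1 replicate 2 and a range from -0.59 to 1.29. Over all genes 29.3% fell in WT and 29.4% in KO. Genes such as Gbp2 and Aldh1a1 passed the filter on low counts only through their DMSO libraries and so had to be lower under JQ1. The counts of falling genes are therefore a description of the genes that passed. Many of these genes are rare in the cultures, and 13, 13, 12 and 15 of the intervals, in the same order, lay within a 2-fold difference.

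In the lists of stress, clock and chromatin enzyme genes, few members had an unadjusted p under 0.05, while 2.30% of all genes had one. They were Ddit4 (1 of 23 integrated stress response genes), Tef (1 of 19 clock genes) and Mll2 (1 of 40 histone methylation enzyme genes). Of the heat shock and chaperone genes, p53 targets and histone acetylation enzyme genes, 0 had one. These counts are not read as a result about the lists. Ddit4, a stress-induced inhibitor of mTOR, stood at 110.7, 110.9 and 117.0 CPM in WT in DMSO and at 105.8, 97.66 and 111.0 CPM in WT in JQ1. Its KO levels were 113.1, 111.6 and 109.6 CPM in DMSO and 85.02, 94.33 and 86.48 CPM in JQ1, so that KO in JQ1 lay below all other libraries. The difference of responses for Ddit4 was -0.22 ± 0.076 (unadjusted p = 0.0119, adjusted p = 1, edgeR). Tef, a clock-controlled bZIP factor, stood at 87.59, 87.13 and 83.21 CPM in WT in DMSO and at 85.07, 89.02 and 79.08 CPM in WT in JQ1. Its KO levels were 82.64, 86.60 and 82.44 CPM in DMSO and 91.07, 95.18 and 93.80 CPM in JQ1, above all other libraries, with a difference of 0.18 ± 0.068. The median difference was 0.0078 over 23 integrated stress response genes, -0.012 over 24 heat shock and chaperone genes, -0.038 over 24 p53 targets and 0.033 over 19 clock genes. It was -0.013 over 40 histone methylation enzyme genes and 0.026 over 29 histone acetylation enzyme genes. No member of these lists was called for the difference (edgeR).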
